A study of Homo sapiens with 6 samples.

Results

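The CD300 family is a group of leukocyte surface receptors, and its members were described here on arrays of lymphoma cells grown with or without IL-17A. The members were 6 genes (CD300A, CD300C, CD300E, CD300LB, CD300LF and CD300LG), and matching the RefSeq accession that each array probe carries to a gene name gave 9 probes for them among the 34127 probes and 19740 named genes of the array. The family was chosen by the difference in CD300A signal between the IL-17A and control arrays, and the disagreement of its probes, known from these same 6 arrays, so the differences between the groups are given for its members as a description, without a test, and support nothing. SU-DHL-2, an established diffuse large B-cell lymphoma (DLBCL) line, was cultured for 72 h with IL-17A at 200 pg/ml (3 arrays) or for the same time without it (3 control arrays), and nothing else was said to differ. All samples come from this 1 cell line. The methods describe 3 samples cultured in each condition but not whether these were independent experiments, so the p-values measure the spread between these samples alone.

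CD300 receptors carry an immunoglobulin-like domain outside the cell and bind lipids that become exposed on dying cells, such as phosphatidylserine and phosphatidylethanolamine. CD300A and CD300LF are inhibitory: their long tails hold tyrosine motifs (ITIMs) that recruit phosphatases such as SHP-1. CD300C, CD300E and CD300LB have short tails and signal through adaptor proteins, among them DAP12 and the Fc receptor gamma chain. CD300LG, also called nepmucin, is known from the endothelium of lymphoid tissue. Most of the family is best known from myeloid cells, and CD300A has also been described on B cells.

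The genes of the family lie side by side on chromosome 17, apart from CD300LG, which lies elsewhere on the same chromosome. RefSeq (GRCh38.p14) promoter windows were found for 2 of the 6 members, CD300A and CD300LB, and are shown because these are the gene with a raised probe and its neighbour in the cluster, whose probe did not pass. Each line holds the 250 bases before the annotated start, 5′ to 3′, and capitals mark the motifs found there. The CD300A window lies at chr17:74466123-74466372 on the plus strand and the CD300LB window at chr17:74531476-74531725 on the minus strand.
CD300A: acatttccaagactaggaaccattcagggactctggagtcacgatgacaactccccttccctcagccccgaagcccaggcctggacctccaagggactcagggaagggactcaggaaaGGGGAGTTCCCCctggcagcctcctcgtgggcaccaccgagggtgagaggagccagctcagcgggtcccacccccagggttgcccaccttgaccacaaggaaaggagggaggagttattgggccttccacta
CD300LB: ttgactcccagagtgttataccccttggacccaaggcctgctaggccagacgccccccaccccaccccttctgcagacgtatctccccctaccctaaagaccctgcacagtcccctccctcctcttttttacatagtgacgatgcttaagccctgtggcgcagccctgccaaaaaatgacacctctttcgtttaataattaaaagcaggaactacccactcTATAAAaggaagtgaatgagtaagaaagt
Both strands were searched for the NF-kB motif, a TATA box (TATAAA), an AP-1 motif (TGANTCA), a C/EBP motif (TTNNGCAA), a STAT motif (TTCNNNGAA) and a PU.1 core (GAGGAA). The CD300A window held overlapping matches to the NF-kB motif on both strands, in 1 stretch that begins 132 bases before the start. Of the 35116 windows of this length in the table, 9.96% held an NF-kB match. The CD300LB window held a TATA box 29 bases before its start, as did 10.7% of all windows. No other searched motif was in either window, and the window of a second annotated start of CD300A held none of them. A match describes letters and is no evidence of binding.

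The arrays were alike. Pearson correlations across tested probes were 0.994 to 0.997 within a group and 0.993 to 0.995 between groups, and no spot was saturated. Signals are background-subtracted intensities, quantile normalized and given on the log2 scale, and a signal is called well above background where the extraction software flagged it so. Before the log, the lowest such signal on an array was 3.62 to 4.32. With limma, 522 of the 23945 probes detected on at least 3 arrays changed by at least 1.5-fold at an unadjusted p under 0.05, 241 of them higher and 281 lower with IL-17A. That split was 150 higher and 422 lower with scaling to the 75th percentile, and 186 and 426 without normalization. The 3 controls were scanned together with IL-17A replicate 1, and the other IL-17A arrays together in another scan, so that scan and treatment overlap in part. With scan as a block, a difference therefore rests on IL-17A replicate 1 alone against the 3 controls. B cell identity was clear, with all 12 markers of the list tested and detected. CD79A, a chain of the B cell receptor, had a mean log2 signal of 13.73 in the controls, and CD79B, its partner chain, of 12.77. Of 10 monocyte and macrophage markers on the array, 4 were tested and 5 were well above background on no array, CSF1R, CD163 and S100A9 among them. S100A9 was at the floor of 1 on every array.

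Of the 9 CD300 probes, 4 were well above background on all 6 arrays, 3 on none, and 5 were detected often enough to enter the test, covering CD300A, CD300E, CD300LB and CD300LG. One of these 5 probes passed both thresholds, and it was higher, where 2.18% of all tested probes passed, 1.01% higher and 1.17% lower. With an adjusted p in place of the unadjusted, 0.823% of all tested probes passed. Since this contrast chose the family, nothing is read from that count. The groups did not overlap for 2 of the 5, against 38.9% of all tested probes. The median log2 difference was -0.13 over the 5 probes and 0.007 over all tested probes, with 1 of the 5 higher and 4 lower with IL-17A.

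**Figure D1:**
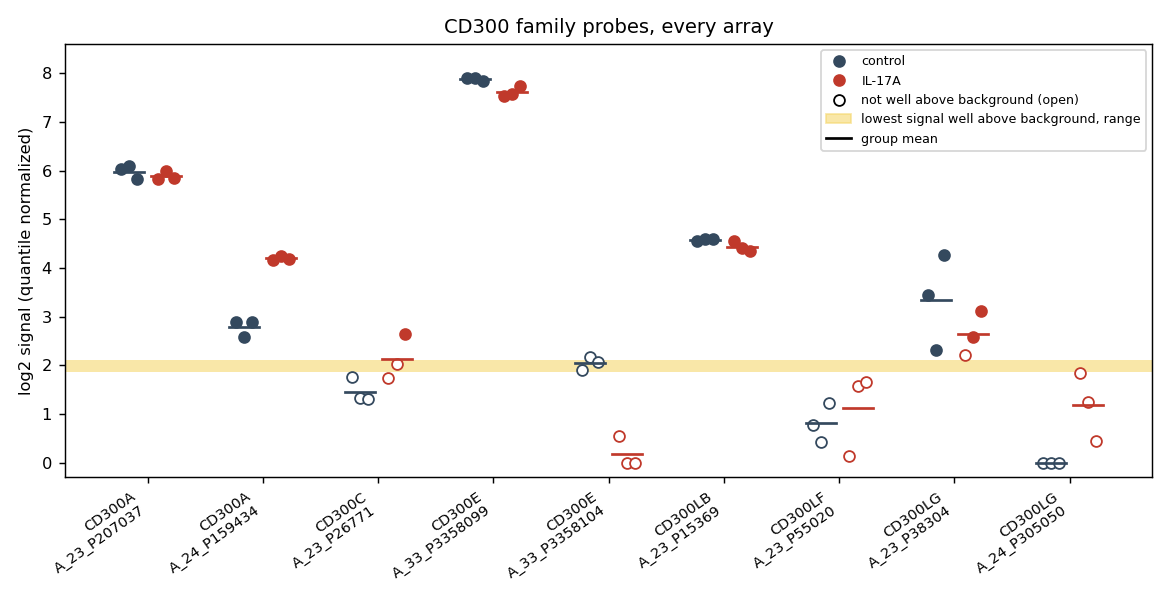
Log2 signal (quantile normalized, vertical axis) of the 9 CD300 probes on each of the 3 control and 3 IL-17A arrays, with group means as lines, open circles for signals not well above background, and a band from 3.62 to 4.32 in signal for the lowest signals well above background. Only A_24_P159434 of CD300A is well above background on all 6 arrays and higher on every IL-17A array than on every control array.

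CD300A, an inhibitory receptor of the cluster, was measured by a pair of probes that gave different answers. Probe A_24_P159434 had signals of 18.0, 18.9 and 18.2 on the 3 IL-17A arrays and of 7.34, 5.97 and 7.35 on the controls. Every IL-17A array was above every control array, and all 6 signals were well above background. On the log2 scale the IL-17A mean was 4.20 ± 0.04 (SD, n = 3) against a control mean of 2.78 ± 0.17 (SD, n = 3), a difference of 1.42 (standard error 0.09), or 2.68-fold. This probe was the one that passed both thresholds, and 21 tested probes had a larger log2 difference. In the scanner readings before any correction, its spot was 20.5 to 21 units brighter than its local background with IL-17A and 10 to 13 units brighter in the controls, over a background of 12 to 14 units.

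Probe A_23_P207037, which carries the same RefSeq accession, had signals of 56.7, 63.9 and 57.3 with IL-17A and of 65.2, 67.8 and 56.4 in the controls. The groups overlapped here. The log2 mean was 5.89 ± 0.10 (SD, n = 3) after IL-17A against 5.98 ± 0.14 (SD, n = 3) without it, and the difference of -0.09 had a standard error of 0.09. All 6 signals were well above background, so neither probe of CD300A lay at the floor. The control signals of A_24_P159434, 5.97 to 7.35, were nevertheless near the lowest signals well above background, 3.62 to 4.32. At mean log2 signals of 3 to 4, like that of A_24_P159434, 5.28% of all tested probes passed both thresholds. RefSeq lists 4 curated transcripts for the gene, and the files give neither the sequence nor the position of a probe, so which transcripts each probe reads is not given in the sources used here.

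The log2 differences of the CD300A probes were 1.51 apart, a disagreement that was known when the gene was chosen, so that its place among other genes is a description. Of the 3507 genes with more than 1 tested probe, 4 had a disagreement at least that large (0.114%), CD300A included, and the others were MAGEA6, DEFB121 and TMSB4X. The median disagreement was 0.13. A gene with 1 probe past both thresholds and another within 0.1 of no change was less rare, with 30 of the 87 such genes that had any probe past the thresholds (34.5%).

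**Figure D2:**
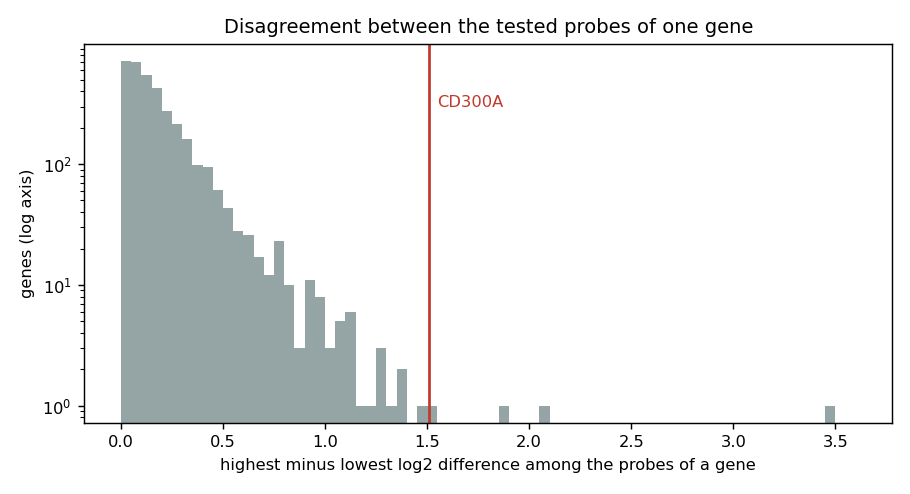
Histogram over 3507 genes with more than 1 tested probe, showing the highest minus the lowest log2 difference (IL-17A minus control) among the probes of a gene on the horizontal axis and the number of genes on a log vertical axis. The line marks CD300A at 1.51, far above the median of 0.13, with 3 genes beyond it.

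Within the scan that the controls shared with a single IL-17A array, the difference was 1.39 for A_24_P159434 and -0.15 for A_23_P207037. That array is among those that chose the gene, so these values are a description too. Leaving out any 1 array kept A_24_P159434 between 1.32 and 1.47 and A_23_P207037 between -0.17 and -0.03. The authors' own normalized values gave 1.41 and -0.09. With normexp background correction and an offset of 50, the difference of A_24_P159434 was 0.16 and it no longer passed the fold threshold. That offset exceeds every signal of this probe and compresses its log2 difference, so this setting cannot show whether the difference held.

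**Figure D3:**
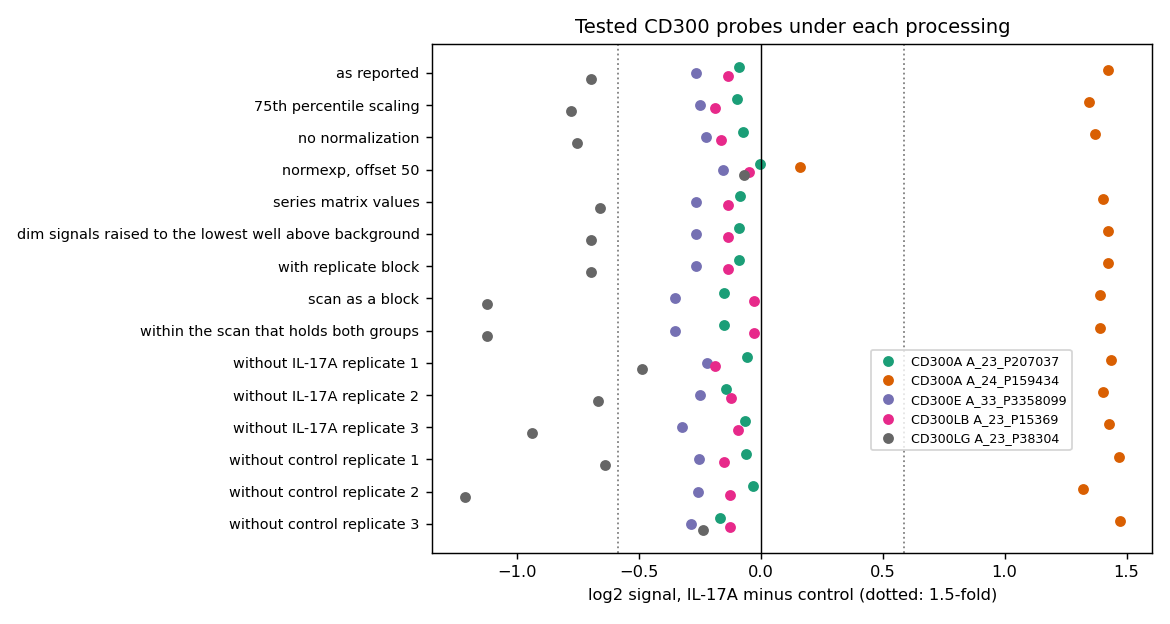
Log2 difference between IL-17A and control arrays (horizontal axis, dotted lines at 1.5-fold) for the 5 tested CD300 probes under each processing or with 1 array left out (rows). A_24_P159434 of CD300A stays between 1.32 and 1.47 except under normexp, at 0.16, while A_23_P207037 of the same gene stays below 0, down to -0.17.

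CD300LF, the other inhibitory member, was not well above background on any array. Its probe read 0.14, 1.57 and 1.65 on the log2 scale with IL-17A, and 0.78, 0.42 and 1.23 in the controls. The groups overlapped below the detection limit, so no level or fold change can be given. The gene lies within the gene model of RAB37, a small GTPase of secretory vesicles, which is described with the neighbours.

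Among the members with short tails, CD300E was the clearest signal. Its probe A_33_P3358099 had signals of 184, 191 and 213 with IL-17A and of 239, 238 and 229 in the controls. All 3 IL-17A arrays were below all 3 controls. The log2 means were 7.61 ± 0.11 (SD, n = 3) and 7.88 ± 0.04 (SD, n = 3), a difference of -0.27 (standard error 0.06) that stayed under the fold threshold. The other CD300E probe, A_33_P3358104, read 1.45, 1.00 and 1.00 with IL-17A and 3.72, 4.47 and 4.16 in the controls. These signals also did not overlap and were lower with IL-17A, but none of them was well above background, so no fold change is given. In the authors' normalized values the log2 difference of A_33_P3358104 was 0.003. The CD300LF probe and A_24_P305050 of CD300LG had the same 0.003 there, so that value cannot show whether A_33_P3358104 was lower.

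CD300LB, an activating member that signals through DAP12, had signals of 23.3, 21.3 and 20.5 with IL-17A and of 23.3, 24.1 and 24.0 in the controls at its probe A_23_P15369. IL-17A replicate 1 was at the level of the controls, and the other IL-17A arrays were below them. The log2 means were 4.44 ± 0.10 (SD, n = 3) and 4.57 ± 0.03 (SD, n = 3), a difference of -0.13 (standard error 0.06). Within the scan that holds both groups the difference was -0.03.

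CD300C, an activating member closely related to CD300A, was near the detection limit. Its probe had signals of 3.35, 4.05 and 6.26 with IL-17A and of 3.36, 2.50 and 2.47 in the controls. IL-17A replicate 3 was the 1 array on which it was well above background. The groups overlapped, no fold change is given, and the probe was not tested.

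CD300LG had the widest spread of the family. Its probe A_23_P38304 had signals of 4.64, 5.97 and 8.70 with IL-17A and of 10.9, 4.94 and 19.1 in the controls. The groups overlapped, and the controls alone spanned more than the IL-17A arrays did. The log2 means were 2.64 ± 0.46 (SD, n = 3) and 3.34 ± 0.98 (SD, n = 3), a difference of -0.70 (standard error 0.53) that lay within the spread of the controls. The difference was -1.22 without control replicate 2, when it passed both thresholds, and -0.24 without control replicate 3. The other CD300LG probe, A_24_P305050, was at or near the floor, with 3.60, 2.37 and 1.35 with IL-17A, 1.00 on every control array, and no array well above background. CD300LD, which is also in the cluster and has 1 probe, had log2 signals of 0.14 to 0.25 on all 6 arrays, none well above background. CD300H had no probe that could be matched.

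The genes whose pattern over the 6 arrays was most like A_24_P159434 of CD300A were ZBTB32, BCAS1, HBM, HYDIN, GRID2IP and AQP7P1. Likeness was the root mean square difference of log2 signals centred on their mean, and it ran from 0.15 for ZBTB32 to 0.26 for AQP7P1. ZBTB32, a transcriptional repressor of lymphocytes, averaged 4.37 (log2) on the IL-17A arrays against 3.03 on the controls, a difference of 1.34. BCAS1 had 5.09 and 3.97, and HBM, a globin gene, had 4.37 and 3.04. HYDIN, a gene of motile cilia, was not well above background on any control array but was on each IL-17A array, and was at least 1.83-fold higher. These genes were picked for this pattern, so it is no evidence about them.

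The proteins through which CD300 receptors signal were next described, to see whether the machinery around the receptors differed. Of 18 such genes, 17 were tested. None passed both thresholds here by limma or by the methods' t-test, where 1.92% of all genes did at the probe with the highest mean signal. The paper, however, lists FCER1G, a gene of this list, among its downregulated genes, called at a fold change of at least 1.5. Its fall here was 1.425-fold. At an unadjusted p under 0.05, 5 of the 17 differed by limma, 1 higher and 4 lower, and 31.8% of all genes did. The median log2 difference was -0.02, against 0.003 over all genes.

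Of the adaptors of the activating receptors, TYROBP and FCER1G had the lowest differences of this list, and HCST was near its median. TYROBP, which encodes DAP12, had log2 signals of 4.31, 4.44 and 4.44 with IL-17A and of 4.71, 4.70 and 4.81 in the controls. Every IL-17A array was below every control array. TYROBP fell by 0.35 in log2 signal (standard error 0.06, adjusted p = 0.0355 by limma), less than 1.5-fold, where 7.59% of all tested probes had an adjusted p under 0.05. FCER1G, the Fc receptor gamma chain, had log2 signals of 6.85, 6.99 and 6.72 with IL-17A and of 7.43, 7.45 and 7.22 in the controls, again without overlap. FCER1G fell by 0.51 (standard error 0.10, adjusted p = 0.0421), and without control replicate 3 the fall was just large enough to pass the fold threshold. HCST, which encodes the adaptor DAP10, had a log2 difference of -0.02 (standard error 0.04, adjusted p = 0.692). With scan as a block, which sets IL-17A replicate 1 alone against the controls, the differences were -0.43 for TYROBP and -0.51 for FCER1G. With a replicate block neither passed adjustment by limma (adjusted p = 0.124 for both). FCER1G and TYROBP are also genes of myeloid cells, as well as of NK cells. The summed signal of the 10 monocyte and macrophage markers was 160 to 173 with IL-17A and 182 to 225 in the controls. That of 10 T and NK cell markers was 1107 to 1200 against 1284 to 1474, and that of 10 endothelial markers 318 to 341 against 356 to 400. All 3 sums were lower with IL-17A without overlap, while those of B cell, granulocyte and mast cell, and dendritic cell markers overlapped. The tested T and NK markers split 4 higher and 4 lower on average, and the endothelial ones 2 higher and 6 lower. Of all single tested probes, 18.0% were lower with IL-17A without overlap. All 4 of the tested monocyte and macrophage markers were lower on average, and 1 of them, FCN1, had an unadjusted p under 0.05. The part of this in the adaptor values was not tested.

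The phosphatases that inhibitory tails recruit were close to level. PTPN6, which encodes SHP-1, averaged a log2 signal of 6.83 on the IL-17A arrays and 6.86 on the controls (difference -0.04, standard error 0.06, adjusted p = 0.697). PTPN11, which encodes SHP-2, differed by 0.08 (standard error 0.05, adjusted p = 0.375), and INPP5D, the lipid phosphatase SHIP-1, by 0.13 (standard error 0.05, adjusted p = 0.169). Among the kinases, SYK, which acts on the adaptors, differed by 0.02, and FGR, a Src family kinase, by 0.09. None of the differences in PTPN6, PTPN11, INPP5D, SYK and FGR passed adjustment.

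**Figure D4:**
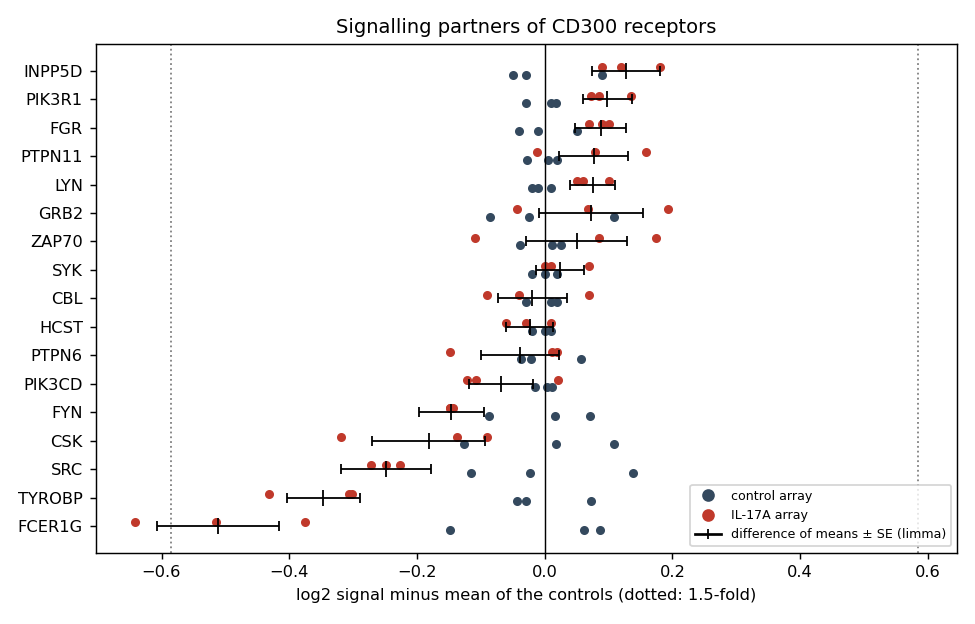
Log2 signal of each array minus the mean of the controls (horizontal axis, dotted lines at 1.5-fold) for the 17 tested signalling partners (rows), with 3 control arrays, 3 IL-17A arrays, and the difference of means with its standard error from limma. FCER1G and TYROBP lie lowest, at -0.51 and -0.35, and all 17 differences lie within 1.5-fold.

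Genes that expose or make the lipids bound by CD300 receptors, with some protein partners of the receptors such as IL4R, made a list of 15, of which 13 were tested. One of them passed both thresholds (7.69%, against 1.92% of all genes), and it was higher, as were 0.814% of all genes. This was PLSCR1, a phospholipid scramblase, with log2 signals of 2.65, 3.11 and 3.02 with IL-17A and of 1.89, 2.14 and 2.81 in the controls. The groups overlapped, and only 1 control array was well above background. At mean log2 signals of 2 to 3, like that of PLSCR1, 10.2% of all tested probes passed both thresholds. Its difference of 0.65 (standard error 0.26, adjusted p = 0.160) did not hold under the methods' t-test, under other scalings, or without IL-17A replicate 2, IL-17A replicate 3, control replicate 1 or control replicate 2, any of which left 0 genes of the list. ATP11A, a flippase that keeps phosphatidylserine inside, fell by 0.21 (standard error 0.04, adjusted p = 0.0457), less than 1.5-fold. Its difference was -0.25 with scan as a block, and its adjusted p by limma was 0.136 with a replicate block. TMEM30A, the subunit that flippases need, differed by -0.06, ATP8A1, another flippase, by 0.16, and ANO6, a scramblase, by 0.27, with adjusted p of 0.323, 0.0832 and 0.0804.

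Of 15 other receptors and bridging proteins for phosphatidylserine, 8 were tested and none passed both thresholds by limma or by the methods' t-test. At an unadjusted p under 0.05, 1 was higher and 1 lower by limma. The higher was MERTK, a receptor kinase for the engulfment of dying cells, with a log2 difference of 0.33 (standard error 0.09, adjusted p = 0.0835). The lower was the integrin chain ITGAV, with -0.11 (standard error 0.04, adjusted p = 0.149). AGER, a multiligand receptor, differed by 0.13 and TYRO3, a relative of MERTK, by -0.10, neither passing adjustment.

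Other paired receptors with immunoglobulin-like domains, of which 24 of 31 were tested, included 2 genes past both thresholds (8.33%, against 1.92% of all genes). Both were collagen-binding receptors. LAIR2, a secreted decoy, had log2 signals of 7.11, 7.33 and 7.19 with IL-17A and of 6.52, 6.55 and 6.54 in the controls, without overlap. LAIR2 rose by 0.68 (standard error 0.06, adjusted p = 0.0252). With scan as a block its difference, from IL-17A replicate 1 alone, was 0.58, just under 1.5-fold. With a replicate block its adjusted p by limma was 0.124, so that it did not pass adjustment. LAIR1, an inhibitory receptor with ITIMs, was measured by a pair of tested probes that disagreed, as those of CD300A did. Probe A_33_P3253394 had log2 signals of 5.65, 5.56 and 5.73 with IL-17A and of 4.94, 4.91 and 5.22 in the controls, and rose by 0.63 (standard error 0.10, adjusted p = 0.0340). Probe A_33_P3355230 had a difference of -0.33 (standard error 0.22, adjusted p = 0.344), within the spread of its arrays. With scan as a block the first LAIR1 probe had a difference of 0.63. Its adjusted p was 0.124 by limma with a replicate block and 0.0627 by the methods' t-test. When control replicate 2 or IL-17A replicate 3 was left out, the first LAIR1 probe no longer passed both thresholds and 1 gene of the list was left.

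Changes under 1.5-fold in this list went both ways. SIGLEC7, an inhibitory sialic acid receptor, was not well above background on any control array but was on each IL-17A array, and was at least 1.30-fold higher (adjusted p = 0.0384 for the signals as measured). In the authors' normalized values the log2 difference of SIGLEC7 was only 0.17, with an adjusted p of 0.196 by limma. Under normexp it was 0.04, where the offset compresses the differences of dim probes. FCGR2B, the inhibitory Fc receptor of B cells, fell by 0.27 (standard error 0.05, adjusted p = 0.0417). Neither passed adjustment by limma with a replicate block, with adjusted p of 0.124 for SIGLEC7 and 0.132 for FCGR2B. The closest relatives of CD300 receptors by domain type, PIGR and FCMR, had differences of 0.24 and 0.26 (adjusted p = 0.138 and 0.0533). LILRB1, an inhibitory receptor for class I molecules, differed by 0.07, CD72, an inhibitory B cell receptor, by -0.03, and SIRPB1, which pairs with DAP12, by -0.18, with adjusted p of 0.261, 0.716 and 0.0769.

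The neighbours of the CD300 genes on chromosome 17 were described to see whether the signal of CD300A was shared along the chromosome. Of 35 neighbouring genes of any type, 19 had a probe and 12 were tested. One passed both thresholds (8.33%, against 1.92% of all genes), and it was lower, as were 1.11% of all genes. KIF19, a kinesin, had log2 signals of 2.87, 3.38 and 2.98 with IL-17A and of 3.41, 3.98 and 4.03 in the controls, and fell by 0.73 (standard error 0.21, adjusted p = 0.0877). The paper also lists KIF19 among its downregulated genes. At mean log2 signals of 3 to 4, like that of KIF19, 5.28% of all tested probes passed both thresholds. Its other probe had a difference of -0.31 (standard error 0.33), and without IL-17A replicate 1, control replicate 2 or control replicate 3 no neighbour passed. GPRC5C, the nearest neighbour of CD300A with a tested probe outside the cluster, had a difference of 0.33 (standard error 0.12, adjusted p = 0.138).

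RAB37, whose gene model contains CD300LF, was higher with IL-17A at both of its probes. Probe A_23_P414654 had log2 signals of 7.15, 7.31 and 7.22 with IL-17A and of 6.74, 6.67 and 6.75 in the controls. All 3 IL-17A arrays were above the controls, and the rise of 0.51 (standard error 0.05, adjusted p = 0.0291) was under 1.5-fold. The difference was 0.43 with scan as a block, and the adjusted p by limma was 0.124 with a replicate block. Probe A_33_P3314594 had a difference of 0.34 (standard error 0.10, adjusted p = 0.0919). On the far side of the cluster, NHERF1, a scaffold protein, differed by -0.09, NAT9 by -0.12 and FDXR, a mitochondrial reductase, by 0.04, and none passed adjustment.

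**Figure D5:**
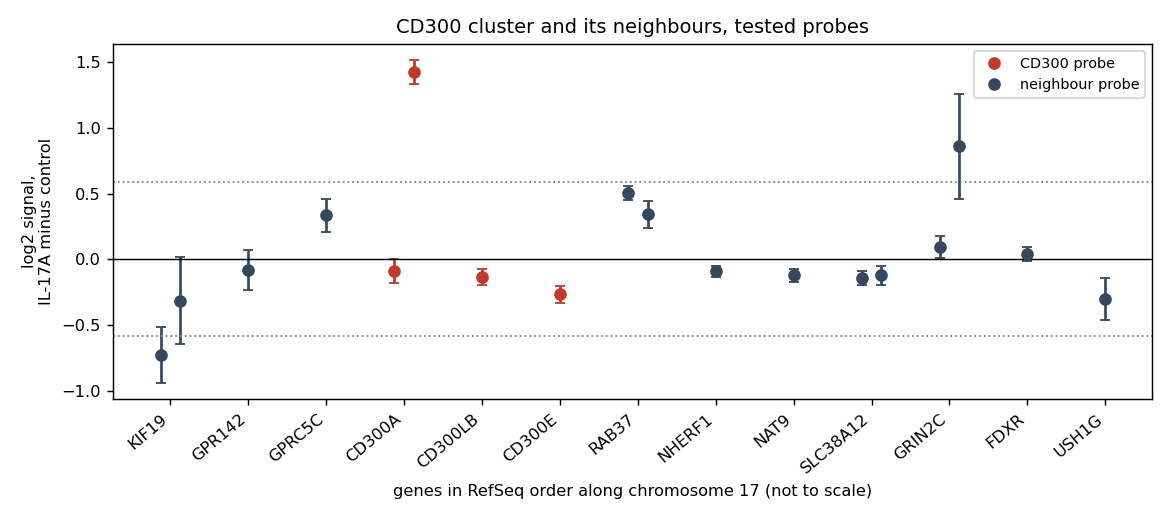
Log2 difference (IL-17A minus control, with its standard error from limma, vertical axis, dotted lines at 1.5-fold) for tested probes of the CD300 cluster and its neighbours, with genes in RefSeq order and not to scale. A_24_P159434 of CD300A, at 1.42, stands above the other CD300A probe at -0.09 and above both RAB37 probes at 0.51 and 0.34.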

How the data were processed

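The study compared SU-DHL-2 cells with and without IL-17A, 3 arrays each, by titles of the samples. The deposited scanner files give an intensity per spot from Agilent Feature Extraction 11.0.1.1, background-subtracted and not normalized between arrays, and, per the file headers, flags of 0 or 1 as other columns. The authors also deposited a table of log2 values that they had quantile normalized in GeneSpring GX. Here, control spots and non-uniform spots were left out, intensities below 1 were set to 1, log2 values were averaged over spots of the same probe, and quantile normalization followed, like that of the authors. Probes detected (positive, significant and well above background) on at least 3 of 6 arrays entered a limma 3.58.1 fit (R 4.3.3) of treatment alone, with two-sided p-values adjusted by Benjamini-Hochberg over every tested probe. Both thresholds means 1.5-fold or more together with an unadjusted p under 0.05. Where a group was nowhere well above background, a fold is a bound against each array's lowest signal well above background.

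Names came from RefSeq (GRCh38.p14), without coordinates of genes since the array design names GRCh37, and 25771 of 34127 probes matched. In lists, a gene is represented by the brightest of its tested probes. The members and lists were chosen with earlier results of these data known. Text names all members, list genes past both thresholds, 3 genes per list with high signals in the controls, and 6 genes like the CD300A probe. TYROBP, FCER1G, HCST, PTPN6, PTPN11, ATP11A, MERTK, SIGLEC7, FCGR2B, PIGR, FCMR, GPRC5C and RAB37 were named after their values were seen. Lists of granulocyte and mast cell, dendritic, T and NK and endothelial markers had 0 genes past both thresholds by limma, with 1, 0, 4 and 4 at an unadjusted p under 0.05. The number of arrays limits the precision. The procedure was tested on simulated data. Alternatives covered scaling, background correction, the authors' table, detection filters, a floor, a variance trend, the methods' t-test, replicate and scan blocks, thresholds, any of a gene's probes, and leaving out each array. Replicate numbers did not pair the samples.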

Additional observations from a re-analysis of the deposited data

How the results depend on the processing

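With normexp and an offset of 50, 15 of all tested probes passed both thresholds, and 0 did among the CD300 probes, the lipid list, the paired receptors and the neighbours. The offset compresses the differences of dim probes. In the lipid list 0 genes passed with 75th percentile scaling, no normalization, the authors' table, a variance trend, probes detected on all 6 arrays, no detection filter, the methods' t-test, a fold change of 2 or adjusted p. With scan as a block the passing gene of that list was IL13RA1, in place of PLSCR1. Over all probes the count was 299 with detection on all 6 arrays, 978 without a filter, 82 at a fold change of 2, 197 with adjusted p, 60 with the methods' t-test and adjusted p, and 802 within the scan that holds both groups, where the lone IL-17A array is assumed to vary like the controls. Without a detection filter, 3 CD300 probes, 2 phosphatidylserine receptors and 2 neighbours passed. With scan as a block or within that scan, 1 paired receptor and 2 neighbours passed. Paired receptors numbered 1 with the methods' t-test and adjusted p and 0 at a fold change of 2, and neighbours 0 at a fold change of 2, with adjusted p, and with the methods' t-test and adjusted p. Leaving out 1 array gave 409 to 658 probes in all, 1 to 2 CD300 probes, 0 to 1 signalling partners, 0 to 1 genes of the lipid list, 0 to 0 phosphatidylserine receptors, 1 to 2 paired receptors and 0 to 1 neighbours. Causes were not tested.

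Replicate numbers shared by the groups did not pair the arrays, with correlations of deviations of -0.0871, -0.0022 and -0.0466, and with a replicate block 527 of all tested probes passed against 522 without it. The block left every count of the lists the same. Of all tested probes, 1818 had an adjusted p under 0.05 by limma, but 4 did with the replicate block. TYROBP, FCER1G, ATP11A, LAIR1, LAIR2, SIGLEC7, FCGR2B and RAB37 lost their adjusted call under the replicate block, with adjusted p of 0.124 to 0.136. Signs of the differences of all 5 tested CD300 probes were kept under each alternative run.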
